A study of Canis lupus familiaris with 36 samples.

Results

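The imprinted DLK1-DIO3 miRNA cluster was followed in canine heart tissue with and without hemangiosarcoma (HSA), a malignant tumour of endothelial cells. Its members were taken from a list of 39 mature miRNA names of this chromosomal domain, and every listed name was looked up in the deposited count table. Of the 39, 33 had an entry in the table, out of 453 mature miRNAs in all, and 32 had at least 1 read in a cardiac library, out of 320. MiR-154, miR-412, miR-431, miR-655, miR-656 and miR-668 had no entry, and miR-300 had an entry with 0 reads in all 12 libraries. After a filter on low counts, 20 members were tested, out of 225 mature miRNAs. The names are those of the table, such as cfa-miR-127, cfa-miR-379 and cfa-miR-409, which give no arm of the hairpin, and the prefix for dog is left out from here on.

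The libraries came from whole formalin-fixed, paraffin-embedded heart tissue of dogs, 6 with cardiac HSA and 6 that had died of causes other than a neoplasm. The dogs with HSA were older than the controls and earlier chemotherapy was no reason for exclusion, so age and treatment cannot be told apart from the tumour here. Groups follow the titles of the libraries, since the treatment field of the labels gave the opposite condition for each cardiac library. If that field were right, each direction given below would be inverted. Splenic libraries of the series were not analysed here. Total counts over 1 entry per mature miRNA ran from 1656084 to 7254770 in HSA and from 5544912 to 9336949 in control, and 1 HSA library stood apart, since the liver miRNA miR-122 made up 26.5% of the counts of HSA replicate 3.

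In mammals, the DLK1-DIO3 domain carries protein-coding genes expressed from the paternal chromosome, among them DLK1 and RTL1, and non-coding RNAs expressed from the maternal chromosome. The miRNAs belong to the maternal set. A small group lies antisense to RTL1, with miR-127, miR-136, miR-431, miR-432 and miR-433. A long run of miRNA genes begins at miR-379, with miR-410 as the last listed member placed in it here. The miRNAs of the domain are processed from long host transcripts, so that many are made together. They are abundant in placenta, embryo and brain and low in most adult tissues. In the RefSeq gene table of the dog (assembly UU_Cfam_GSD_1.0, another assembly than the CanFam3.1 of the submitters, hence used for order only), all 33 members of the count table lay on 1 chromosome, after DLK1. The order was miR-493, the antisense group, miR-370, and then the run from miR-379.

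The cluster was not uniformly high or low in cardiac HSA. HSA replicates 2 and 5 held it far above each control library, while HSA replicates 4 and 6 held most of its members below each control library, and HSA replicates 1 and 3 lay between. Summed over the members, the cluster took 0.432% of the counts of HSA replicate 2 (95% Wilson interval 0.425 to 0.439) and 0.350% of those of HSA replicate 5 (0.344 to 0.356). The share was 0.0421% in HSA replicate 1, 0.0272% in HSA replicate 3, 0.0195% in HSA replicate 4 and 0.0148% in HSA replicate 6 (0.0140 to 0.0157). In the 6 control libraries it ran from 0.0303% to 0.0524% (median 0.0412%). Thus HSA replicates 2 and 5 lay above the whole control range, HSA replicates 3, 4 and 6 below it and HSA replicate 1 inside it. With the CPM as deposited, HSA replicate 3 was inside the control range as well, at 229.7 CPM against 210.5 to 366.0 CPM. The highest share was 29.1 times the lowest among the HSA libraries and 1.73 times among the control libraries. These intervals cover counting error only. In tissue pieces, fewer cells of a type and less RNA per cell cannot be told apart.

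**Figure D1:**
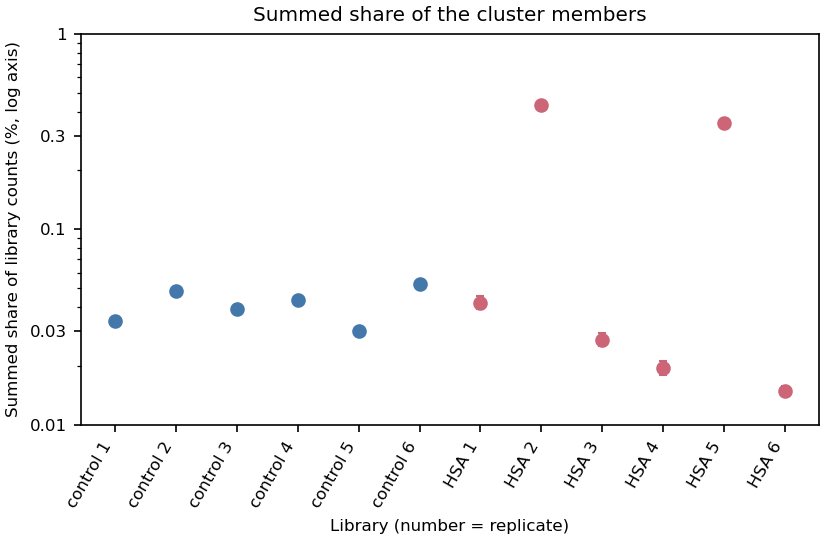
Summed share of the cluster members in each library, as a percentage of its counts on a log axis, with 95% Wilson intervals as bars, many of them smaller than the points. The 6 control libraries (blue) lie between 0.0303% and 0.0524%, whereas the HSA libraries (red) run from 0.0148% to 0.432%.

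The number of members detected changed less than their level. In HSA replicates 1 to 6, 23, 29, 21, 24, 28 and 23 members had a read, against 23 to 26 in the control libraries. With at least 10 counts required, the numbers were 14, 26, 15, 8, 26 and 15 in HSA and 17 to 22 in control. HSA replicates 2 and 5 therefore had the most members on both measures. HSA replicate 1, the shallowest library, and HSA replicate 6, one of the deeper ones, had 14 and 15 members with at least 10 counts. Their cluster shares differed as well, at 0.0421% and 0.0148%. Thinned to the same depth, the expected number with a read was 23.0 in HSA replicate 1 and 19.7 in HSA replicate 6. Thinned to the smallest total of 1656084 counts, the expected number with a read was 28.5 in HSA replicate 2 and 27.4 in HSA replicate 5, against 19.7 to 23.0 in the other HSA libraries and 19.9 to 23.5 in control.

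**Figure D2:**
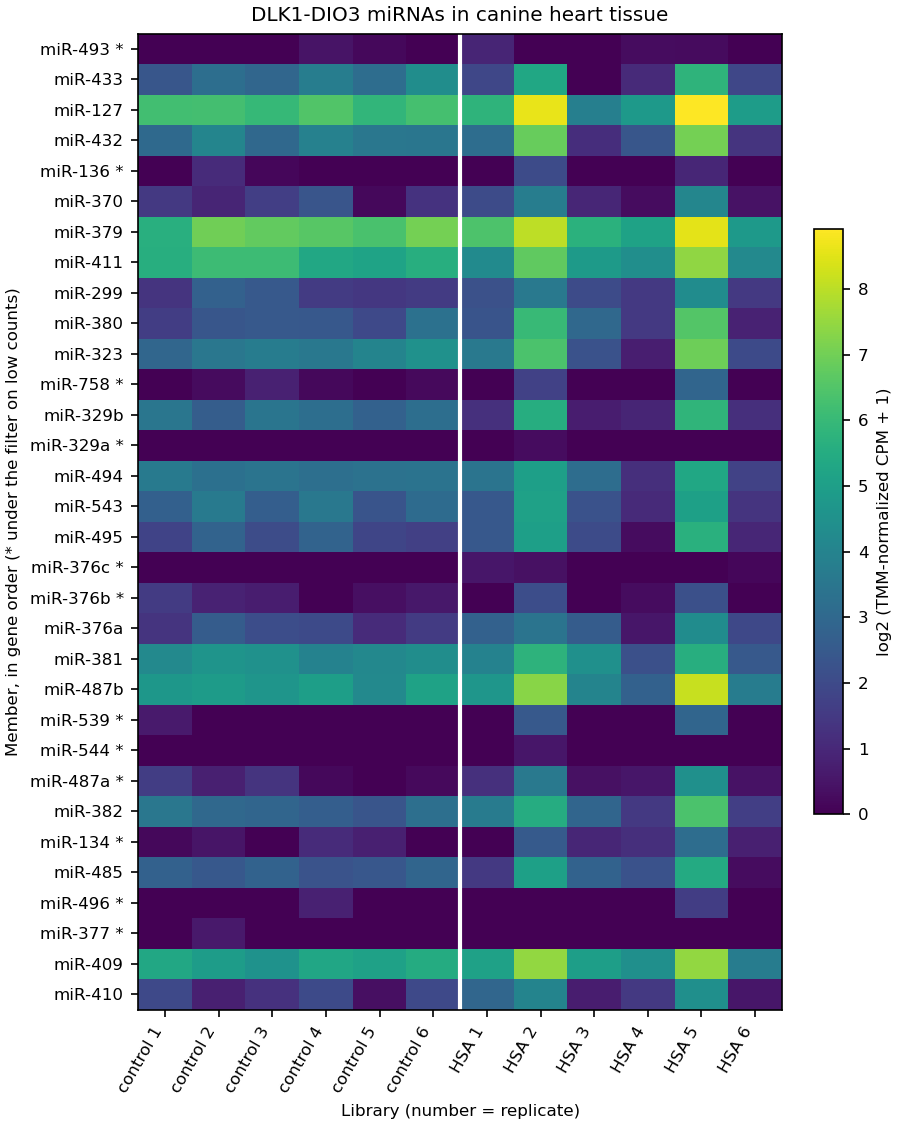
Level of the 32 members with a read, as log2 of TMM-normalized CPM plus 1 (colour), with the 6 control and the 6 HSA libraries as columns and the members as rows in gene order; an asterisk marks members under the filter on low counts. The columns of HSA replicates 2 and 5 are the brightest of all for each of the 20 tested members, from miR-433 at the top to miR-410 at the bottom.

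For all 20 tested members, HSA replicates 2 and 5 had higher levels than each of the other 10 libraries, on counts scaled to library size (CPM) and normalized by edgeR's TMM method, the CPM of all levels below. Among the 203 tested miRNAs that were neither members nor listed neighbours, 9 had this pattern. The pair of libraries was singled out after the values had been seen, so these counts are a description. The 20 of 20 also held with CPM of the library total, with a total that leaves out the striated muscle miRNAs and with the CPM as deposited. The 9 of the 203 other miRNAs refer to TMM-normalized CPM, and their number on the other scales is not given here. Which of the pair was higher depended on the scale. With TMM factors, HSA replicate 5 was the highest library for 17 members and HSA replicate 2 for miR-381, miR-409 and miR-543, but with CPM of the library total HSA replicate 2 was the highest for 16 and HSA replicate 5 for 4. With TMM factors, HSA replicate 2 had 2.09 to 14.0 times the control mean (median over the tested members 5.59) and HSA replicate 5 had 2.50 to 20.0 times (median 7.09). With CPM of the library total, HSA replicate 2 had 4.94 to 32.6 times (median 13.2) and HSA replicate 5 had 3.54 to 28.0 times (median 10.0).

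The other 4 HSA libraries lacked such a rise. Of the 20 tested members, HSA replicate 1 had 6 below each control library and 3 above, HSA replicate 3 had 9 below, HSA replicate 4 had 17 below and HSA replicate 6 had 16 below, with 0 above in HSA replicates 3, 4 and 6. Of the 203 other miRNAs, the share below each control library was 29.6% to 36.9% over the 6 HSA libraries, and the share above was 28.1% to 49.8%. The members below control in HSA replicates 4 and 6 were 85.0% and 80.0% of those tested, and the difference from the other miRNAs was not tested. With CPM of the library total, 13 and 16 members remained below in HSA replicates 4 and 6. The shares of the other miRNAs refer to TMM-normalized CPM and are not given with CPM of the library total. HSA replicate 3 depended on the scale, with 5 members below and 3 above on that scale, and 5 below and 5 above with the CPM as deposited. The median over the members of the log2 difference from the control mean was -0.16 in HSA replicate 1, 2.36 in HSA replicate 2, -0.64 in HSA replicate 3, -1.42 in HSA replicate 4, 2.64 in HSA replicate 5 and -1.54 in HSA replicate 6.

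**Figure D3:**
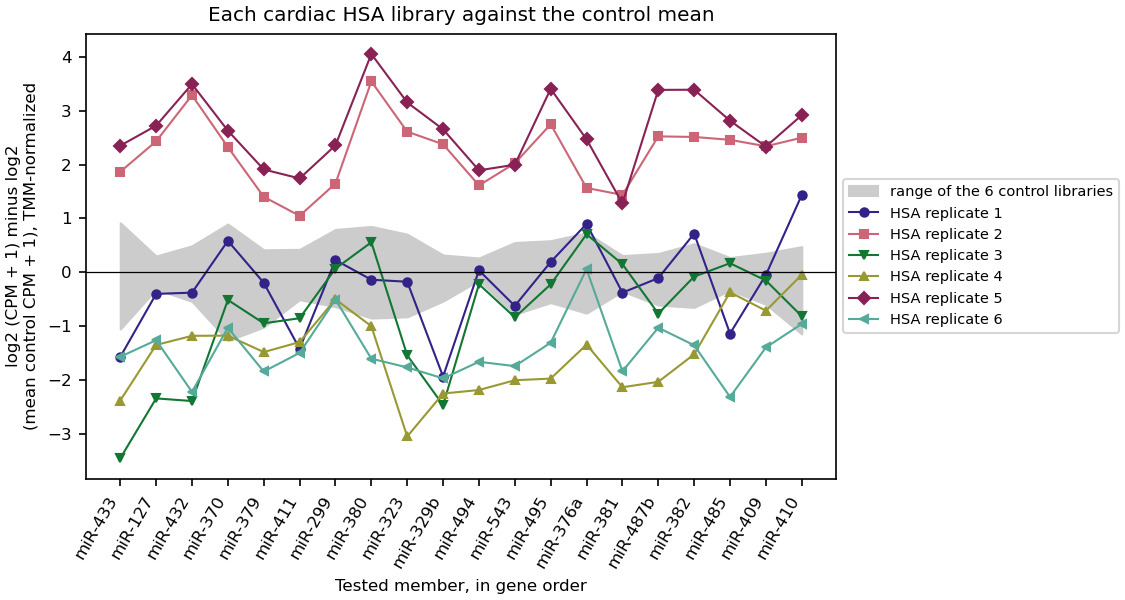
Level of each tested member in each HSA library minus the level of the mean control library, as a difference of log2 of TMM-normalized CPM plus 1, with members in gene order and the range of the 6 control libraries in grey. HSA replicates 2 and 5 run above the grey band for all 20 members, and HSA replicates 4 and 6 run below it for 17 and 16 of them.

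Among the members, the antisense group came after miR-493 in the order of the genes. MiR-127, which is fully complementary to the RTL1 transcript and had the highest mean level over the 12 libraries, had 54.3, 394, 13.4, 27.6, 482 and 29.4 CPM in HSA replicates 1 to 6, and 57.7 to 89.0 CPM (median 73.7) in control. Only HSA replicates 2 and 5 exceeded the control libraries, and the other 4 HSA libraries lay below all of them, so the groups overlapped only through the pair on top. In control, miR-379, the start of the run described below, was more abundant, at a mean of 98.4 CPM against 72.2 CPM for miR-127. The log2 fold change of miR-127, HSA over control, was 1.21 (SE 0.79, adjusted p = 0.218 in edgeR's quasi-likelihood test with Benjamini-Hochberg adjustment). The same test gave all adjusted p below unless another tool is named. MiR-432 had 8.07, 114, 1.25, 4.20, 132 and 1.53 CPM in HSA and 7.11 to 15.6 CPM (median 10.4) in control, and its log2 fold change was 2.01 (SE 1.05, adjusted p = 0.134). HSA replicate 1 lay within the control range and HSA replicates 3, 4 and 6 lay below it. MiR-433 had 0 counts in HSA replicate 3, 1.10 to 2.70 CPM in HSA replicates 1, 4 and 6, 39.1 CPM in HSA replicate 2 and 55.1 CPM in HSA replicate 5, against 4.28 to 19.8 CPM in control. MiR-136, under the filter, had 28 counts in HSA replicate 2, 5 in HSA replicate 5 and 0 in the other HSA libraries, and 12 over all control libraries.

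The run from miR-379 on held most of the abundant members. MiR-379, its first gene, had 85.7, 261, 50.4, 34.5, 372 and 26.6 CPM in HSA replicates 1 to 6 and 47.9 to 132 CPM (median 102) in control, and its log2 fold change was 0.49 (SE 0.62, adjusted p = 0.527). HSA replicates 1 and 3 lay within the control range and HSA replicates 4 and 6 below it. MiR-411, the next gene, had 18.4, 106, 27.7, 20.1, 173 and 17.4 CPM in HSA and 35.5 to 68.7 CPM (median 47.1) in control, and its log2 fold change of 0.25 (SE 0.59, adjusted p = 0.735) was the smallest of the members. All 4 HSA libraries other than replicates 2 and 5 lay below the control range. MiR-323 had 11.2, 83.4, 3.73, 0.663, 122 and 3.05 CPM in HSA and 6.77 to 21.5 CPM (median 11.5) in control, and its log2 fold change was 1.55 (SE 0.99, adjusted p = 0.217). HSA replicate 1 lay within the control range and HSA replicates 3, 4 and 6 below it, with only 3 counts in HSA replicate 4.

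MiR-380, reported to repress p53 in neuroblastoma, had the largest log2 fold change and the lowest adjusted p of the members, 2.63 (SE 1.03, adjusted p = 0.0534). It had 4.04, 63.8, 7.16, 1.77, 91.3 and 0.821 CPM in HSA replicates 1 to 6 and 2.07 to 9.00 CPM (median 4.35) in control. HSA replicates 2 and 5 held 14.0 and 20.0 times the control mean, the largest of these ratios among the tested members, while HSA replicates 1 and 3 lay within the control range and HSA replicates 4 and 6 below it. MiR-495, reported to promote the proliferation of cardiomyocytes, had 4.49, 31.4, 3.11, 0.221, 50.1 and 0.938 CPM in HSA and 2.25 to 6.21 CPM (median 2.92) in control, and its log2 fold change was 1.98 (SE 0.99, adjusted p = 0.123). HSA replicates 1 and 3 lay within the control range, and HSA replicates 4 and 6 below it with 1 and 8 counts.

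MiR-381 had 14.3, 53.1, 21.2, 3.54, 47.4 and 4.57 CPM in HSA replicates 1 to 6 and 14.6 to 23.7 CPM (median 18.4) in control, and its log2 fold change was 0.34 (SE 0.59, adjusted p = 0.653). It was among the members with the smallest rise in HSA replicates 2 and 5, at 2.79 and 2.50 times the control mean, and HSA replicates 1, 4 and 6 lay below the control range. MiR-487b, one of the members whose inhibition increased the growth of new vessels in mice with ischaemic limbs, had 24.7, 158, 15.2, 5.75, 289 and 12.6 CPM in HSA and 17.1 to 34.2 CPM (median 26.9) in control, and its log2 fold change was 1.66 (SE 0.84, adjusted p = 0.128). HSA replicate 1 was inside the control range and HSA replicates 3, 4 and 6 were below it. MiR-485, known for its action at synapses, had 1.79, 32.9, 5.91, 3.76, 42.4 and 0.235 CPM in HSA and 3.88 to 6.43 CPM (median 5.14) in control, and its log2 fold change was 1.50 (SE 0.88, adjusted p = 0.182). Here HSA replicate 3 was inside the control range and HSA replicates 1, 4 and 6 were below it. MiR-409, near the far end of the run, had 33.2, 178, 30.8, 20.6, 178 and 12.4 CPM in HSA and 22.4 to 44.2 CPM (median 35.5) in control, and its log2 fold change was 1.13 (SE 0.63, adjusted p = 0.158). Only HSA replicates 4 and 6 lay below the control range.

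The remaining 9 tested members had the following log2 fold changes. MiR-410, the last member placed in the run and like miR-495 known from work on cardiomyocyte proliferation, had 2.03 (SE 0.90, adjusted p = 0.0840). MiR-382 had 1.84 (SE 0.84, adjusted p = 0.0906) and miR-370 had 1.67 (SE 0.98, adjusted p = 0.181). MiR-376a, whose seed is a known target of A-to-I editing, had 1.42 (SE 0.67, adjusted p = 0.101). None of these 4 passed the test. The values were 1.21 for miR-299, 1.15 for miR-329b, 0.79 for miR-543, 0.76 for miR-433 and 0.67 for miR-494, with adjusted p between 0.147 and 0.570. MiR-329b and miR-494 have, like miR-487b and miR-495, been studied as brakes on the growth of vessels.

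No member was differentially expressed between cardiac HSA and control when both an adjusted p under 0.01 and a change of at least 1 on the log2 scale were required. In edgeR, 0 of 20 members were called, whereas 58 of all 225 tested miRNAs (25.8%) were called, 42 of them higher in HSA (18.7%). At an unadjusted p under 0.05 there were 3 members, miR-380, miR-410 and miR-382, against 120 of the 225 miRNAs (53.3%). For 0 of 20 members did the 6 HSA and the 6 control values lie apart without overlap, against 58 of the 225 (25.8%). DESeq2 called 0 of 31 members, against 24.6% of all miRNAs it gave an adjusted p, and had 8 of 32 members at an unadjusted p under 0.05, against 46.4% of all. In limma, 0 of 20 members were called, against 25.8% of all, and 0 had an unadjusted p under 0.05, against 56% of all. At an adjusted p under 0.05, a threshold tried after the data were seen, DESeq2 named miR-380 (log2 fold change 2.52, adjusted p = 0.0201) and miR-487a (2.86, adjusted p = 0.0434), against 30.6% of all miRNAs.

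The size of the fold changes was not small. All 20 members had a positive log2 fold change, from 0.25 to 2.63, with a median of 1.32, where the median over all 225 tested miRNAs was 0.34. The standard errors were large as well, with a median of 0.84 for the members and 0.37 over all tested miRNAs. The median of the 6 HSA libraries was nevertheless below the median of the 6 control libraries for 13 of the 20 members, while the mean was above the control mean for all 20. Thus the fold change, which follows the mean, and the typical HSA library differed in sign for most members. Without HSA replicate 5 the median log2 fold change of the members was 0.68, without HSA replicate 2 it was 0.97, and the log2 fold change of miR-411 turned negative in both cases, at -0.43 and -0.05.

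**Figure D4:**
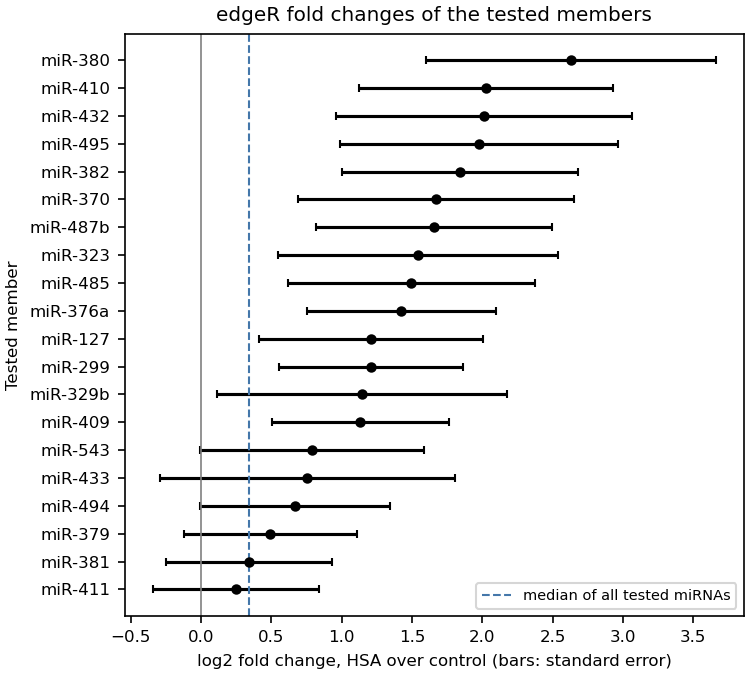
Log2 fold change of each tested member, HSA over control, by edgeR (points) with its standard error (bars); the dashed line marks the median of all tested miRNAs, 0.34. All 20 points lie to the right of 0, from 0.25 for miR-411 to 2.63 for miR-380, and the bars are wide, with a median of 0.84.

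The HSA libraries differed from each other far more than the control libraries did. The standard deviation of log2 of CPM plus 1 had a median of 1.90 over the 20 members in HSA and of 0.47 in control. Over the 203 other miRNAs it was 0.64 in HSA and 0.29 in control. The standard deviation was larger in HSA than in control for all 20 members, and for 182 of the 203 others, so a larger spread in HSA was common to most miRNAs. The ratio of the highest to the lowest HSA library had a median of 44.0 over the 19 members with reads in all HSA libraries, from 9.96 for miR-411 to 226 for miR-495. In control the median ratio was 2.66 over the 20 members, from 1.38 for miR-494 to 28.5 for miR-370.

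The largest ratios, on TMM-normalized levels, rested on few counts in the lowest library. For miR-495, HSA replicate 5 had 267 counts and HSA replicate 4 had 1 count, and the ratio of 226 had a 95% exact counting interval of 40.3 to 8980. For miR-323 the ratio was 184 (62.7 to 895), with 3 counts in HSA replicate 4, and for miR-485 it was 181 (49.4 to 1500), with 2 counts in HSA replicate 6. MiR-380, with 7 counts in its lowest library, HSA replicate 6, had a ratio of 111 (53.6 to 278). Abundant members gave tighter values, such as 36.0 (26.7 to 49.9) for miR-127 and 50.3 (34.2 to 77.3) for miR-487b. For miR-433, with 294 counts in HSA replicate 5 and 0 in HSA replicate 3, the lower limit of the same interval was 47.7.

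The antisense group and the run from miR-379 moved together in most libraries. Summed over the antisense group, HSA replicate 2 had 5.91 times and HSA replicate 5 had 7.19 times the control mean, and summed over the run the values were 3.99 and 5.64, on TMM-normalized levels. With CPM of the library total, the values of HSA replicates 2 and 5 were 13.9 and 10.1 for the antisense group and 9.39 and 7.96 for the run, so the order of these libraries turned. In HSA replicates 4 and 6 the antisense group stood at 0.353 and 0.361 times the control mean and the run at 0.342 and 0.309. HSA replicate 3 was the exception, with the antisense group at 0.157 and the run at 0.652 times the control mean. The antisense group made up 6.97% of the member counts in HSA replicate 3 (47 of 674 counts, 95% Wilson interval 5.28 to 9.15), against 20.8% to 31.4% in the other 5 HSA libraries and 19.2% to 28.4% in control. Its lowest value elsewhere, 19.2% in control replicate 3, had an interval of 18.0 to 20.5. MiR-127 alone made up 6.38% of member counts in HSA replicate 3 and 15.7% to 23.3% in all others, and this was the library in which miR-122 took 26.5% of all counts. The part of that RNA in the result was not tested.

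Within the cluster, other proportions also shifted in HSA replicates 2 and 5. MiR-411 made up 6.08% and 7.30% of member counts there and 9.74% to 17.3% in control, although HSA replicate 1 had 5.88% as well. MiR-432 made up 6.54% and 5.58%, against 1.81% to 3.47% in control. MiR-380 made up 3.64% and 3.86%, against 0.630% to 1.93% in control, and HSA replicate 3 had 3.41%. The rise in HSA replicates 2 and 5 was thus unequal among the 20 tested members, smallest for miR-411, miR-379 and miR-381 and largest for miR-380, miR-432 and miR-495.

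The 12 members of the table that had reads but did not pass the filter were miR-134, miR-136, miR-329a, miR-376b, miR-376c, miR-377, miR-487a, miR-493, miR-496, miR-539, miR-544 and miR-758. Their highest count in any library was 112, for miR-487a in HSA replicate 5, which had 100 counts in HSA replicate 2 and at most 3 in the other HSA libraries. In control, miR-487a had 0 to 15 counts. MiR-134, which acts on dendritic spines in neurons, had 43 counts in both HSA replicates 2 and 5, at most 6 in the other HSA libraries and 0 to 9 in control. MiR-539 had 42 and 35 counts in HSA replicates 2 and 5, 0 in the other HSA libraries and 4 in a single control library. MiR-758 had 21 and 35 counts in them, 0 in the other HSA libraries and at most 7 in control. These 4 low members, named after their values were seen, showed the same libraries on top, as did miR-376b with 30 and 19 counts. Others did not. MiR-376c had its highest level in HSA replicate 1 and 0 counts in HSA replicate 5, and miR-496 had 0 counts in HSA replicate 2. MiR-493, the first gene in the order, had at most 3 counts in any library, and miR-377 was seen only in control replicate 2, with 5 counts. MiR-329a and miR-329b, and the genes of the miR-376 group, are close copies of each other, so their split depends on how reads were assigned.

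Of 11 further miRNAs of the domain that are not on the list of members, 4 had an entry and 2 were tested. MiR-369, from the end of the run next to miR-409 and miR-410, had 34.5, 133, 26.5, 10.4, 181 and 12.6 CPM in HSA replicates 1 to 6 and 15.5 to 32.2 CPM in control, and its log2 fold change was 1.59 (SE 0.68, adjusted p = 0.0728). MiR-889, which lies between miR-539 and miR-544, had 20.6, 120, 6.54, 3.76, 185 and 9.27 CPM in HSA and 7.99 to 23.2 CPM in control, and its log2 fold change was 1.87 (SE 0.87, adjusted p = 0.0987). For both, HSA replicates 2 and 5 lay above the other 10 libraries, HSA replicate 4 lay below each control library, and neither was called. HSA replicate 1 was above the control range for miR-369 only.

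The cellular make-up of the tissue, as far as marker miRNAs show it, differed between the HSA libraries. Striated muscle miRNAs (miR-1, the miR-133 family, miR-206, miR-208a, miR-208b and miR-499) took 13.5% to 19.3% of the counts in control. They took 17.5% and 19.0% in HSA replicates 1 and 6, 3.33% and 9.09% in HSA replicates 2 and 5, 3.77% in HSA replicate 4 and 0.0892% in HSA replicate 3. MiR-208a, with only 11 to 80 counts in the control libraries, was at 0 in HSA replicates 3, 4, 5 and 6. MiR-208b was at 0 in HSA replicate 3, but had 582 counts in HSA replicate 6. Of the 8 muscle miRNAs 0 were called in edgeR, with a median log2 fold change of -1.24, against 25.8% called of all 225 tested miRNAs. The 8 include both miR-133a and miR-133c, whose counts are nearly equal. HSA replicates 2 and 4, with muscle shares of 3.33% and 3.77%, had cluster shares of 0.432% and 0.0195%. HSA replicates 1 and 6, with muscle shares in the control range, had cluster shares of 0.0421% and 0.0148%. The part of muscle content in the cluster's level was not tested.

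The other marker lists also varied. Over all 225 tested miRNAs, 25.8% were called and 18.7% were called higher in HSA. The hepatocyte miR-122 was called higher, with 26.5% of the counts in HSA replicate 3 and 0.00986% to 0.0595% in the other HSA libraries. Mesenchymal and smooth muscle miRNAs (miR-143, miR-145, the miR-199 family and miR-214) took 19.0% of the counts in HSA replicate 5 but 7.48% in HSA replicate 2, the lowest HSA library, against 6.60% to 9.47% in control, and 0 of 4 were called. The endothelial miR-126 took 0.382% and 0.201% in HSA replicates 2 and 5, 0.136% to 0.578% in the other HSA libraries and 0.252% to 0.419% in control (log2 fold change -0.45, not called). Myeloid and lymphoid miRNAs, of which 4 of 4 were called higher in HSA, took 0.877% in HSA replicate 2 and 0.119% in HSA replicate 5, 0.0778% to 0.496% in the other HSA libraries and 0.0292% to 0.0441% in control. Epithelial miRNAs, of which 2 of 3 tested were called higher, took 0.0837% and 0.485% in HSA replicates 2 and 5, 0.00507% to 0.0784% in the other HSA libraries and 0.000832% to 0.00214% in control. Erythroid miRNAs, with 1 of 4 called higher and 1 lower, took 2.42% and 0.893% in HSA replicates 2 and 5, 2.36% to 6.87% in the other HSA libraries and 2.39% to 3.37% in control. Of the lists in the plot of cluster share against marker share, only the epithelial one had HSA replicates 2 and 5 as its highest libraries, where HSA replicate 2 was close to HSA replicate 4. In HSA replicate 2 that share was nearly all miR-203, with 2989 counts against 76 for the rest of the list, and miR-203 is among the miRNAs found with the pattern of the members. Without miR-203, the epithelial share was 0.00208% in HSA replicate 2, 0.292% in HSA replicate 5 and 0.0571% in HSA replicate 4. The part of these cell types in the cluster's level was not tested.

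**Figure D5:**
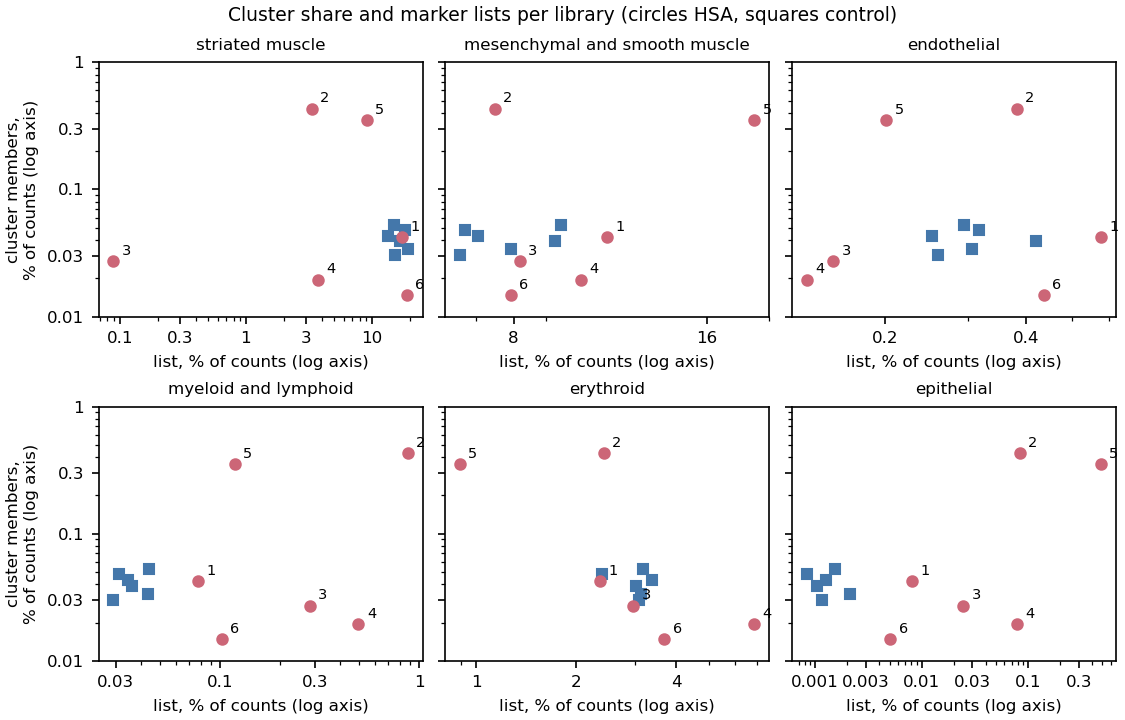
Summed share of the cluster members (vertical) against the summed share of each marker list (horizontal) per library, both as a percentage of counts on log axes, with HSA libraries as numbered circles and control libraries as squares. HSA replicates 2 and 5 lie at the top of each panel, and their place from left to right changes with the list, with muscle shares of 3.33% and 9.09% and mesenchymal shares of 7.48% and 19.0%.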

How the data were processed

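Small RNA was measured in 12 cardiac FFPE libraries, 6 of HSA and 6 of control. The authors trimmed and aligned the reads to CanFam3.1 and deposited raw counts per mature miRNA and precursor, along with the same counts scaled to CPM by the authors, which were recomputed to within 0.00499 CPM. The labels name a QIAseq kit, and the study's methods another one for cardiac libraries. Of 517 entries, 43 that repeated a name and its counts were merged, leaving 474. Members kept the entry with the highest total. The members and lists were chosen with earlier results of these data known.

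The tests were run in edgeR 4.0.16 under R 4.3.3 (TMM factors, default filter on low counts by condition, quasi-likelihood F test, Benjamini-Hochberg adjustment over 244 tested entries). TMM factors were 0.948 to 1.97 in HSA and 0.769 to 0.889 in control. The factor of 1.97 was that of HSA replicate 2, and the next highest was 1.17, in HSA replicate 5. Calls required an adjusted p under 0.01 together with a change of at least 1 on the log2 scale, and the SE was derived from the F statistic (size of the change divided by the root of F). DESeq2 1.42.0 and limma 3.58.1 (on log2 of CPM plus 1) were alternatives. The fits were tested on simulated data. Each library is 1 dog, per the study's design. Shares refer to the total over 1 entry per mature miRNA, and the muscle share leaves out miR-133c, whose counts nearly equal those of miR-133a. Values in each library are given for the 8 members with the highest mean over all libraries and the 4 tested members with the largest ratio of the highest to the lowest HSA library; others, named for their low counts or their place in the order, were chosen after their values were seen.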

Additional observations from a re-analysis of the deposited data

Results flagged for a closer look

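MiR-380 had 9.00 CPM in control replicate 6, apart from the other 5 control libraries, which had 2.07 to 4.63 CPM. The gap to the nearest library was 0.630 of the whole range, above Dixon's 95% critical value for 6 libraries. It was the only such library among 44 groups of 6 libraries examined, and chance singles out about 1 in 20 groups. With HSA replicates 2 and 5 both high, their values did not meet this criterion in any member.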

How the results depend on the processing

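No member was called under any of the alternatives set beforehand, DESeq2 and limma included, and the median log2 fold change of the members stayed positive, from 0.01 with the replicate block to 2.06 with library size only. Leaving out single libraries gave 0.68 to 1.51. With DESeq2 at an adjusted p under 0.05, chosen after seeing the data, 2 members and 92 miRNAs were called. Calls over all miRNAs numbered 58 (72.4% of them higher in HSA), 6 with the replicate block and 24 to 65 without single libraries (38 without HSA replicate 4 or control replicate 6, 25, 29, 26 and 24 without control replicates 1, 2, 4 and 5). The share of calls higher in HSA was 93.2% with library size only and 91.4% with limma, where the median over the tested miRNAs moved from 0.34 to 0.97 and 0.74.

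The median number of members with a read, 23.5 in HSA and 24.0 in control, became 19.0 and 22.5 with more than 3 counts, 15.0 and 19.5 with at least 10, and 22.6 in control after thinning. The summed mean level in control, 411.8 CPM, became 541.6 without the muscle miRNAs in the total and 285.6 as deposited. Of 476 log2 fold changes of single members under the alternatives, 17 turned negative. With limma these were miR-329b (-0.013) and miR-433 (-0.12). Without HSA replicate 2 they were miR-381 (-0.16) and miR-411 (-0.05), and without HSA replicate 5 miR-379 (-0.11), miR-411 (-0.43) and miR-433 (-0.10). Over all single libraries left out, the ranges were -0.11 to 0.71 for miR-379, -0.16 to 0.56 for miR-381, -0.43 to 0.45 for miR-411 and -0.10 to 1.06 for miR-433.

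With the replicate block they were miR-127 (-0.20), miR-323 (-0.25), miR-329b (-1.40), miR-379 (-0.14), miR-381 (-0.27), miR-411 (-0.44), miR-432 (-0.16), miR-433 (-1.18), miR-494 (-0.18) and miR-543 (-0.29). The numbers do not pair the dogs: same-numbered libraries correlated at -0.31 to 0.08, and none correlated best with its own number. The cause of these changes was not tested. Depth limits the members with few counts, above all in HSA replicate 1, the shallowest library.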

Other observations

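Among the 203 other tested miRNAs, 9 had HSA replicates 2 and 5 above the remaining 10 libraries, and they were named after their values were seen: miR-7, miR-33a, miR-34a, miR-124, miR-129, miR-135a-5p, miR-182, miR-203 and miR-3958. They were on neither the list of members nor that of further domain miRNAs, and their own place in the genome is not given here. MiR-7, abundant in neuroendocrine tissue, had 7606 CPM in HSA replicate 2 and 13860 CPM in HSA replicate 5, at most 830 CPM in the other HSA libraries and 135 to 238 CPM in control (log2 fold change 4.51, SE 0.98, adjusted p = 0.00384 in edgeR's quasi-likelihood test). MiR-135a-5p had 214 and 399 CPM in the same libraries and 1.63 to 14.1 CPM in control (log2 fold change 4.34, SE 1.13, adjusted p = 0.00813). MiR-129 was called too (3.42, SE 0.79, adjusted p = 0.00461), as were miR-182 (5.34, SE 1.04, adjusted p = 0.00226) and miR-203 (5.21, SE 0.98, adjusted p = 0.00193). In these 5 the other HSA libraries were for the most part above the control mean, which was not so for most of the tested cluster members. MiR-376a was an exception, with 5.83, 4.979 and 2.815 CPM in HSA replicates 1, 3 and 6 against a control mean of 2.671 CPM.

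MiR-3958 had 30.6 and 29.1 CPM in HSA replicates 2 and 5, 0.311 to 6.28 CPM in the other HSA libraries and 3.75 to 5.17 CPM in control, a pattern like that of the members, with a log2 fold change of 1.50 (SE 0.78, adjusted p = 0.134). MiR-124, miR-33a and miR-34a had log2 fold changes of 1.65, 1.54 and 0.38 and were not called.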
